A study of Mus musculus with 4 samples.

Results

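The genes described are the matrix metalloproteinases (MMPs), their tissue inhibitors (TIMPs) and the ADAMTS proteases of mouse embryonic fibroblasts. They were taken as all protein-coding genes whose mouse symbol is Mmp, Timp or Adamts followed by a number and at most 1 letter a or b. 45 of the 54532 gene IDs of the count table met this rule, 22 MMPs, 4 TIMPs and 19 ADAMTS genes. Mmp1a matched by name but is annotated as a polymorphic pseudogene and was left out. RNA was sequenced from primary C57BL/6 fibroblasts of embryos at 12.5 to 13.5 days post-coitum, grown to passage 4. 4 genotypes had 1 library each: Trp53-/-; Zfp871-/- (double null), Trp53-/-, Zfp871-/- and WT. Per the series description, crosses of double heterozygotes gave the WT, Trp53-/- and double-null embryos, and crosses of Zfp871 heterozygotes gave WT and Zfp871-/- embryos. Neither the cross behind the sequenced WT cells, nor any pooling of embryos, nor how the alleles were made is stated in the labels. Both Trp53-null genotypes came from 1 kind of cross, so differences of cross or litter cannot be told apart from Trp53 loss. Zfp871-/- came from the other kind of cross. Since the cross behind WT is not stated, such differences cannot be told apart from Zfp871 loss in Zfp871-/- over WT either.

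MMPs are zinc-dependent endopeptidases that are made as inactive proenzymes and cleave collagens, proteoglycans and other matrix proteins once their prodomain is removed. TIMPs bind the active site of MMPs and block it, and TIMP3 also inhibits ADAM and ADAMTS proteases. ADAMTS proteases carry thrombospondin repeats that hold them in the matrix, where groups of them cleave proteoglycans, process procollagens or act on microfibrils. Fibroblasts are a main source of TIMPs and of many of these proteases, and macrophages add enzymes of their own.

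No genotype had a replicate library, so a ratio between libraries has no replicate check and compares these cultures. Libraries held 19303167 to 22324599 counts. Zfp871 had 307 counts in the double null and 327 in Zfp871-/-, against 784 in Trp53-/- and 660 in WT. Trp53 had 1382 and 1233 counts in the Trp53-null libraries (double null and Trp53-/-), against 2413 in Zfp871-/- and 2383 in WT. Cdkn1a, a target of p53, had 341 counts in each Trp53-null library, against 13103 in Zfp871-/- and 13979 in WT. The fibroblast genes Col1a1, Vim and Pdgfrb had at least 8208 counts in every library. Libraries also stood apart in markers of other cell types. The summed normalized CPM of 15 macrophage markers was 984 in the double null, 1097 in Trp53-/-, 89.7 in Zfp871-/- and 78.2 in WT. That of 13 chondrocyte markers was 47.4, 38.9 and 93.8 in the double null, Trp53-/- and Zfp871-/-, against 1057 in WT, and 3, 3, 2 and 1 of the 13 had no counts in the double null, Trp53-/-, Zfp871-/- and WT. In RNA from whole cultures, fewer cells of a type and less RNA per cell cannot be told apart.

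Levels were compared between genes on the deposited FPKM scale, which divides counts by gene length. 2 inhibitors led the members: Timp1, the secreted inhibitor of most MMPs, had the highest value in each of the 4 libraries. Its FPKM was 388 in the double null, 354 in Trp53-/-, 767 in Zfp871-/- and 840 in WT. Timp2, which blocks MMP2 and also helps MMP14 to activate it, came second in each library with an FPKM of 175, 184, 271 and 475 in the same order. Mmp14, the membrane-anchored enzyme that activates MMP2, was close to level across libraries, with an FPKM of 156, 159, 182 and 144. Timp1, Timp2 and Timp3 together made up 62.5% of the summed FPKM of all 45 members in the double null, 60.5% in Trp53-/-, 72.4% in Zfp871-/- and 70.2% in WT. Among the ADAMTS genes Adamts1, which cleaves versican and aggrecan, was highest, with an FPKM of 38.8, 41.5, 39.7 and 43.9 in the same order.

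Many members were barely expressed. 16 of the 45 reached an FPKM of 10 in at least 1 library and 18 stayed under 1 in every library. Testing needed a CPM, the count scaled by library size, of 1 or more in at least 2 libraries, which kept 32 members and 13306 genes in all. The 13 members that were not tested had at most 38 counts in a library. Mmp20, the enamel protease, and Mmp21, a protease of left-right patterning, had 0 counts in every library. A count of 0 allows up to 3 counts in a library. A member that passed the filter through its high libraries alone had to differ, so counts over the tested members describe those 32 and not the families.

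**Figure D1:**
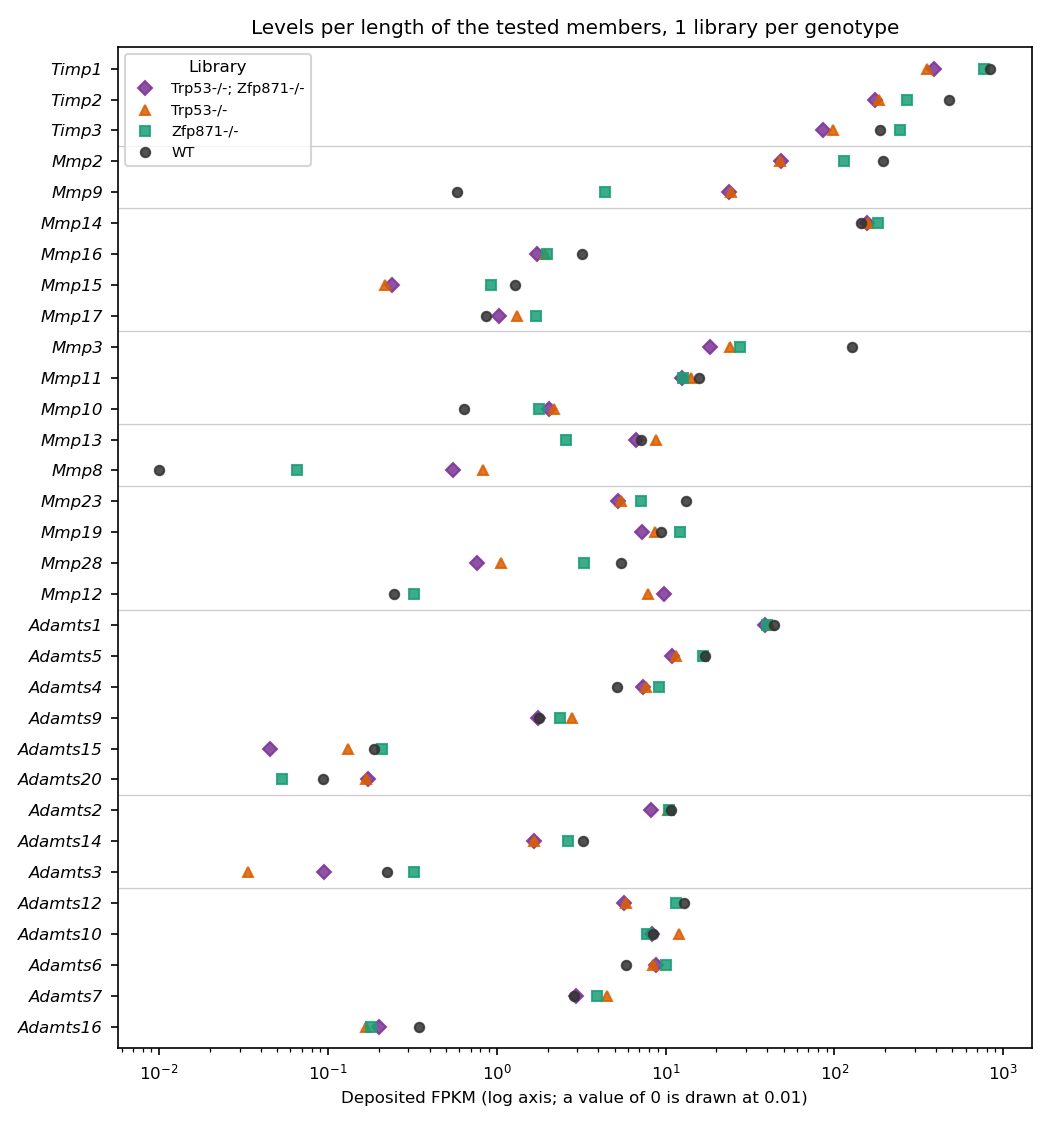
Deposited FPKM (log axis) of the 32 tested members in each library, ordered by role; each point is 1 library and there are no error bars. Timp1 lies rightmost in all 4 libraries, and Mmp9 lies at 24.4 in Trp53-/-, against 0.581 in WT.

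The first question is what loss of Trp53, which encodes the transcription factor p53, does to these genes. Of the 3 tested TIMPs 2 fell. Timp1 had 345 and 317 normalized CPM in the double null and Trp53-/-, against 682 in Zfp871-/- and 752 in WT. Timp3, the matrix-bound inhibitor, had 699 and 801, against 1991 in Zfp871-/- and 1527 in WT. For both genes the Trp53-null values lay below both Trp53-intact values. Timp1 fell by 1.11 on the log2 scale with Trp53 loss (SE 0.13, adjusted p 0.0254, quasi-likelihood test of edgeR, Benjamini-Hochberg), and Timp3 fell by 1.22 in the same edgeR test (SE 0.188, adjusted p 0.0375). Timp2 had 683 and 722 normalized CPM in the double null and Trp53-/-, against 1055 in Zfp871-/- and 1863 in WT. It was lower by a log2 ratio of -0.63 in the double null over Zfp871-/- and -1.37 in Trp53-/- over WT, and its change did not pass (edgeR adjusted p 0.0659). The adjusted p of Timp2 over the alternatives ran between 0.000125, with DESeq2's Wald test, and 0.0855. Timp4, the inhibitor with the narrowest tissue range, was too low to be tested, with 2 and 1 counts in the double null and Trp53-/-, against 12 in Zfp871-/- and 38 in WT. Timp3 and Timp4 share 1733 and 90 exon bases with Syn3 and Syn2 on the other strand, which had at most 17 and 18 counts in a library.

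Over the 32 tested members 7 fell and 1 rose with Trp53 loss, or 21.9% and 3.12%. Of all 13306 genes 4.31% fell and 5.01% rose in that test. An unadjusted p under 0.05 was reached by 16 members (50%), against 31% of all genes. Among the 16, Mmp8, Adamts20 and Adamts3 passed the filter only through the libraries where they were high. Those genes had to differ, so their place in this count is no separate result. The members that fell were Timp1, Timp3, Mmp2, Mmp15, Mmp28, Adamts5 and Adamts12, and the member that rose was Mmp12. The median log2 change of the tested members was -0.32, against 0.00 over all genes tested. The test fits Trp53 and Zfp871 as additive factors over the 4 libraries and has 1 residual degree of freedom, so its p-values describe these cultures. It also counts any difference between the backgrounds as error.

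Mmp2, the gelatinase that fibroblasts secrete constitutively, had 164 and 162 normalized CPM in the double null and Trp53-/-, against 384 in Zfp871-/- and 660 in WT. It fell by 1.63 (SE 0.227, edgeR adjusted p 0.0329), with a log2 ratio of -1.23 (95% counting interval -1.29 to -1.17) in the double null over Zfp871-/-. In Trp53-/- over WT the log2 ratio of Mmp2 was -2.03 (-2.09 to -1.98). Mmp15, a membrane-anchored MMP, had 30 and 26 counts in the double null and Trp53-/-, against 94 in Zfp871-/- and 131 in WT, and fell by 2.24 (SE 0.342, edgeR adjusted p 0.0367). Mmp28, also called epilysin and first described in epithelium, had 69 and 90 counts, against 240 in Zfp871-/- and 398 in WT. It fell by 2.23 (SE 0.215, edgeR adjusted p 0.0205). It shares 466 exon bases with a gene on the other strand, and since no strand setting is given, reads there cannot be assigned. Of the other membrane-anchored members Mmp14 was not called, with a log2 change of -0.04, and Mmp16 and Mmp17 had changes of -0.47 and -0.06 that did not pass.

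Of the 14 tested ADAMTS genes 2 fell (14.3%, against 4.31% of all genes) and 0 rose (5.01% of all genes). Adamts12, which cleaves the cartilage protein COMP, had 1449 and 1404 counts in the double null and Trp53-/-, against 2363 in Zfp871-/- and 2649 in WT. It fell by 1.07 (SE 0.105, edgeR adjusted p 0.0213), and its log2 ratio was -1.01 in the double null over Zfp871-/- and -1.13 in Trp53-/- over WT. Adamts5, the main aggrecanase of mouse cartilage, had 2746 and 2726 counts, against 3377 in Zfp871-/- and 3503 in WT. It fell by 0.59 (SE 0.104, edgeR adjusted p 0.0458), a call that was lost with total counts in place of TMM scaling (adjusted p 0.0624, where the alternatives ran between 0.0186 and that value). Of the 3 procollagen N-proteinases, which trim fibrillar procollagens, 0 were called. Adamts14 had log2 ratios of -0.66 in the double null over Zfp871-/- and -0.96 in Trp53-/- over WT. Adamts3 had only 12 and 4 counts in the double null and Trp53-/-, against 33 in Zfp871-/- and 23 in WT, and Adamts2 had a log2 change of -0.21 (edgeR adjusted p 0.32).

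Mmp12, the macrophage elastase, rose. It had 1640 and 1243 counts in the double null and Trp53-/-, against 44 in Zfp871-/- and 34 in WT. It rose by 4.94 (SE 0.157, edgeR adjusted p 0.00697), with log2 ratios of 4.86 (4.49 to 5.38) in the double null over Zfp871-/- and 4.91 (4.49 to 5.52) in Trp53-/- over WT. All 15 macrophage markers were at least 2-fold higher in both pairs, with median log2 ratios of 3.56 and 4.13. The part of macrophages in the Mmp12 difference was not tested. Mmp12 overlaps Mmp1b on the other strand by 157 exon bases, but Mmp1b had at most 9 counts in a library.

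Mmp9, the second gelatinase, which macrophages, neutrophils and osteoclasts make, showed a graded pattern. It had 1940 and 1893 counts in the double null and Trp53-/-, against 291 in Zfp871-/- and 39 in WT. The log2 ratio was 2.43 (2.26 to 2.62) in the double null over Zfp871-/- and 5.33 (4.93 to 5.89) in Trp53-/- over WT. The change of 3.68 did not pass the edgeR test (SE 0.754, adjusted p 0.0592), and it passed with DESeq2's Wald test (adjusted p 0.0142) and with limma-voom (0.0476), over a range of 0.00397 to 0.0597 for all alternatives. Neither of the 2 tested collagenases was called. Mmp8, the neutrophil collagenase, had 31 and 44 counts in the double null and Trp53-/-, against 3 in Zfp871-/- and 0 in WT, which makes it at least 8.39-fold higher in the double null and at least 12.7-fold higher in Trp53-/- than in WT (against a floor of 3 counts in WT). It did not pass the edgeR test (adjusted p 0.0673). Markers that define neutrophils were near 0, with S100a9 and Elane at 0 counts in every library and S100a8 at no more than 7. Of the osteoclast markers Dcstamp and Calcr had at most 1 count in a library, Ocstamp at most 7, Oscar at most 11 and Atp6v0d2 at most 13. Atp6v0d2 had 12 and 13 counts in the double null and Trp53-/-, against 2 in Zfp871-/- and 8 in WT. Oscar had 2 and 11, against 8 in Zfp871-/- and 4 in WT, and Acp5 had 55 and 36 in the double null and Trp53-/-, against 18 in Zfp871-/- and 77 in WT.

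**Figure D2:**
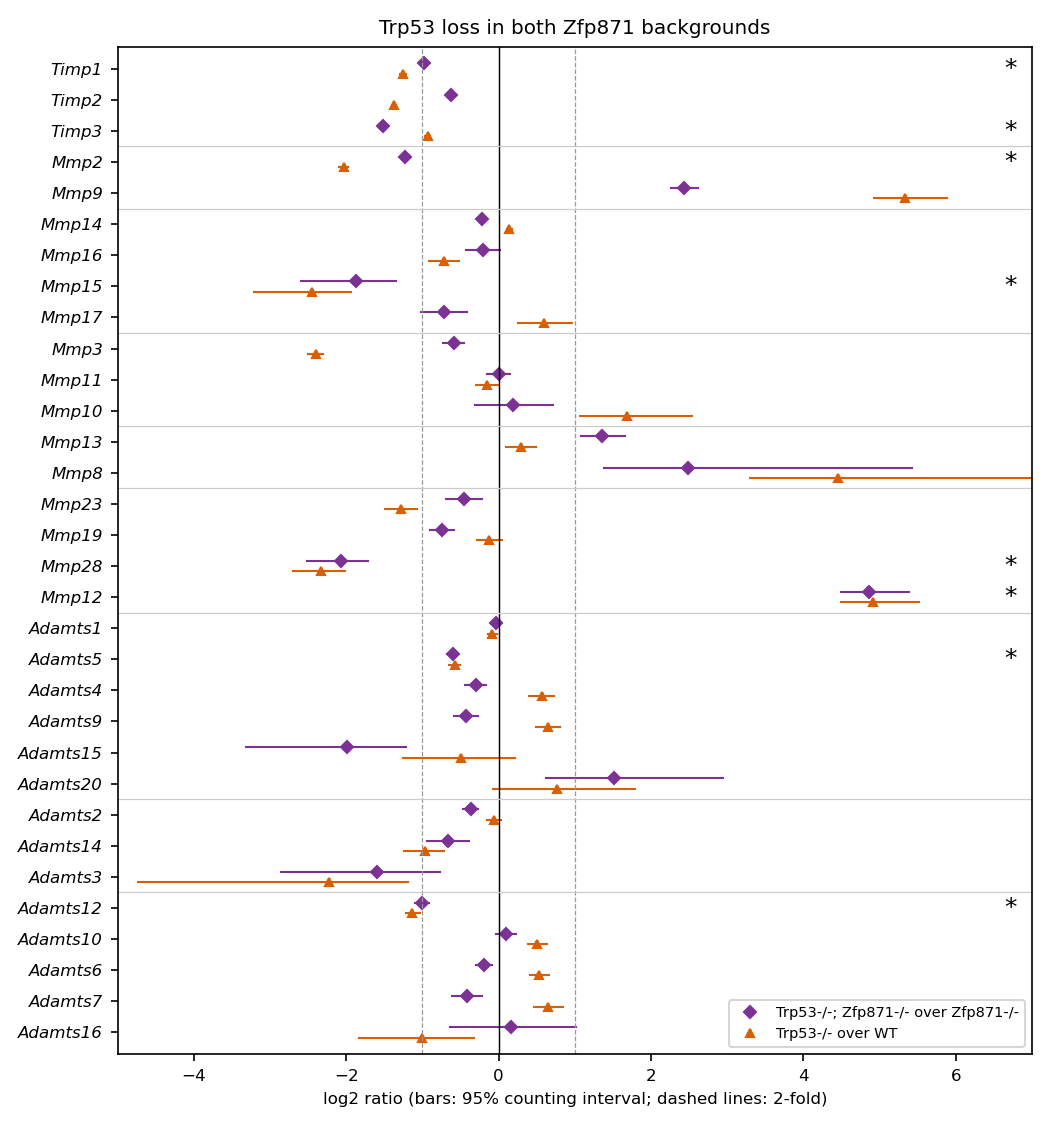
log2 ratio of each tested member for Trp53 loss, with diamonds for the double null over Zfp871-/- and triangles for Trp53-/- over WT; bars are 95% counting intervals, an open upper end runs to the edge, and stars mark the 8 members past the edgeR test. Mmp12 lies near 4.9 in both backgrounds, while Mmp3 lies at -0.59 and -2.40.

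Counted by size alone, more members were at least 2-fold lower than at least 2-fold higher in both Trp53 pairs. In Trp53-/- over WT 9 of the 32 were at least 2-fold lower (28.1%, against 8.88% of all genes) and 4 at least 2-fold higher (12.5%, against 8.9%). That higher share lay near the share of all genes. In the double null over Zfp871-/- 7 were at least 2-fold lower (21.9%, against 6.33%) and 5 at least 2-fold higher (15.6%, against 5.51%). 5 members were 2-fold lower in both backgrounds (4.58% of all genes were), namely Mmp2, Mmp15, Mmp28, Adamts3 and Adamts12. 3 were 2-fold higher in both (4.25% of all genes), namely Mmp8, Mmp9 and Mmp12. Mmp8 passed the filter only through the Trp53-null libraries (1.34 and 2.02 normalized CPM, against 0.159 in Zfp871-/- and 0 in WT). So did Adamts20, 1 of the 5 higher in the double null over Zfp871-/-. Adamts3 passed only through Zfp871-/- and WT (1.75 and 1.22, against 0.517 in the double null and 0.183 in Trp53-/-). Those genes had to differ, so their place in these counts is no separate result. Mmp23, an MMP that lacks the usual haemopexin domain, had 285 and 281 counts in the double null and Trp53-/-, against 317 in Zfp871-/- and 590 in WT. Its log2 ratio was -1.28 in Trp53-/- over WT (interval -1.49 to -1.07). Its ratio in the double null over Zfp871-/- was -0.45 (-0.69 to -0.22).

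For 6 members the counting intervals of both Trp53 pairs excluded 0 on opposite sides: Mmp14, Mmp17, Adamts4, Adamts6, Adamts7 and Adamts9. That is 18.8% of the tested members, against 5.88% of all genes. Each was higher in Trp53-/- than in WT and lower in the double null than in Zfp871-/-. Adamts4, an aggrecanase, had 825, 808 and 825 counts in the double null, Trp53-/- and Zfp871-/-, against 471 in WT. Adamts6, which acts on microfibrils, had 1601, 1447 and 1480 counts, against 862 in WT. For both genes WT lay below the 3 null libraries. The additive test called none of the 6, and with 1 library a genotype no test of the difference between backgrounds was possible.

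The second question is what loss of Zfp871, which encodes a zinc finger protein, does. No member was called in the additive test, either up or down, and neither was any of the 13306 genes (0% in each direction), with a smallest adjusted p of 0.874 among members. Zfp871 itself was not called, with a log2 change of -1.23 (SE 0.171, edgeR adjusted p 0.874). The lack of calls therefore does not show that members were unchanged. 3 of the 32 members (9.38%) had an unadjusted p under 0.05, namely Mmp3, Mmp13 and Mmp28, against 3.83% of all genes. DESeq2 and limma-voom also called 0 members. Single pairs did differ in size. In Zfp871-/- over WT 3 members were at least 2-fold higher (9.38%, against 3.52% of all genes) and 2 at least 2-fold lower (6.25%, against 3.98%). 1 of the 3, Mmp8, had 3 counts against 0, and with a prior count of 5 only 2 were higher. In the double null over Trp53-/- 1 was at least 2-fold higher (3.12%, against 0.819%) and 1 at least 2-fold lower (3.12%, against 1.01%). Those were Adamts3 and Adamts15, which had at most 30 counts in these libraries. 0 members were at least 2-fold apart with the same sign in both backgrounds of Trp53. Of all genes 0.105% were higher and 0.158% lower in both.

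Mmp3, or stromelysin-1, cleaves proteoglycans and fibronectin and activates other proMMPs. It had 770, 957 and 940 counts in the double null, Trp53-/- and Zfp871-/-, against 4365 in WT. WT stood alone, above all 3 null libraries, and the double null was lowest at 33.2 normalized CPM, against 232 in WT. The log2 ratio was -2.21 (-2.32 to -2.11) in Zfp871-/- over WT and -0.40 (-0.54 to -0.26) in the double null over Trp53-/-. Mmp3 was the only tested member at least 2-fold lower in each null library than in WT (3.12%, against 2.53% of all genes).

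Mmp13, the main interstitial collagenase of mice and a product of hypertrophic cartilage and bone, was lowest in Zfp871-/-. It had 414 and 518 counts in the double null and Trp53-/-, 130 in Zfp871-/- and 365 in WT. The log2 ratio was -1.47 (-1.79 to -1.19) in Zfp871-/- over WT and -0.41 (-0.60 to -0.22) in the double null over Trp53-/-. Of the 6 tested chondrocyte markers 3 were at least 2-fold lower in the first of these pairs and 0 at least 2-fold higher. Col10a1, the collagen of hypertrophic cartilage, had 183 counts in Zfp871-/- against 4863 in WT, and Col2a1 had 558 against 11633, while Sox9 had 771 against 798 and Matn3 24 against 12. In the double null and Trp53-/-, where the log2 ratio of Mmp13 to WT was -0.12 and 0.29, Col10a1 had 7 and 16 counts and Col2a1 50 and 25. The part of cartilage cells in the Mmp3, Mmp13 and Timp4 values was not tested.

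Mmp9 and Mmp10 were higher in Zfp871-/- than in WT. The log2 ratio of Mmp9 was 2.84 (2.42 to 3.42) in Zfp871-/- over WT and -0.05 (-0.15 to 0.04) in the double null over Trp53-/-. In the first pair the 15 macrophage markers had a median log2 ratio of 0.27 and none was 2-fold apart, and Mmp12 had a ratio of 0.36 (-0.30 to 1.06). Mmp10, the second stromelysin, had 82, 83 and 58 counts in the double null, Trp53-/- and Zfp871-/-, against 21 in WT. Its ratio was 1.39 (0.73 to 2.26) in Zfp871-/- over WT and -0.10 (-0.56 to 0.35) in the double null over Trp53-/-. Both were at least 2-fold higher than in WT in each null library. Mmp8 also passed that fold with the prior count, giving 9.38% of tested members against 2.06% of all genes, but its 3 counts in Zfp871-/- against 0 in WT are at the floor and show no 2-fold difference.

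**Figure D3:**
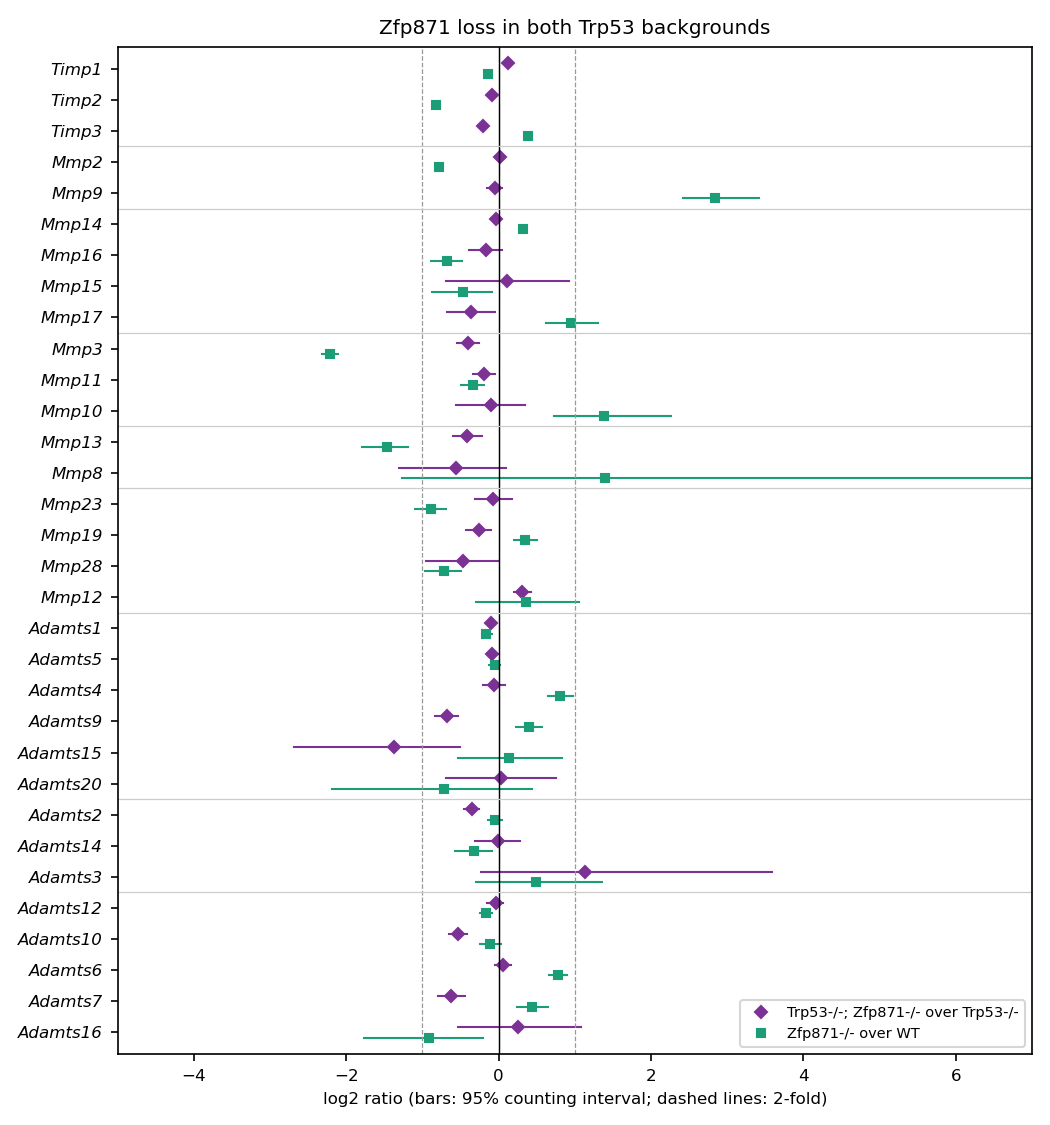
log2 ratio of each tested member for Zfp871 loss, with diamonds for the double null over Trp53-/- and squares for Zfp871-/- over WT; bars are 95% counting intervals and an open upper end runs to the edge. Mmp9, at 2.84 and -0.05, and Mmp3, at -2.21 and -0.40, are far apart between the backgrounds.

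The inhibitors differed in both directions with Zfp871 loss. Timp4 had a log2 ratio of -1.52 (-2.73 to -0.69) in Zfp871-/- over WT, on 12 against 38 counts. Timp2 was lower in Zfp871-/- than in WT, with a log2 ratio of -0.82 (-0.85 to -0.79), and -0.08 (-0.11 to -0.05) in the double null over Trp53-/-. Timp3 was 0.38 (0.36 to 0.40) in the first pair and -0.20 (-0.23 to -0.17) in the second, and Timp1 was -0.14 and 0.13. 7 members, Timp1, Timp3, Mmp14, Mmp17, Mmp19, Adamts7 and Adamts9, had intervals on opposite sides of 0 in these pairs (21.9%, against 9.52% of all genes). The difference between backgrounds is the same value for both gene losses, so this count and that for Trp53 loss are not separate results. 6 members had both intervals below 0, namely Timp2, Mmp3, Mmp11, Mmp13, Mmp28 and Adamts1 (18.8%, against 5.95%), and 0 had both above (8.24% of all genes). In Zfp871-/- over WT 10 intervals lay above 0 (31.2%, against 27.7% of all genes) and 14 below (43.8%, against 27.3%). In the double null over Trp53-/- 2 lay above (6.25%, against 19% of all genes) and 16 below (50%, against 17.5%). These intervals cover counting error only and none of the spread between cultures.

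Adamts10, a protease of fibrillin microfibrils, lies 0.74 Mb from Zfp871 on chromosome 17 (33524204 to 33553782, GRCm38/mm10). It had 1056 and 801 counts in the Zfp871-null libraries (double null and Zfp871-/-), against 1434 in Trp53-/- and 867 in WT. The log2 ratio was -0.53 (-0.65 to -0.41) in the double null over Trp53-/- and -0.11 (-0.25 to 0.03) in Zfp871-/- over WT. Adamts18 had 22 and 21 counts in the double null and Trp53-/-, 0 in Zfp871-/- and 18 in WT, so that the Zfp871-/- level was lower than in WT by at least 5.99-fold, against a floor of 3 counts in Zfp871-/-. It was too low to be tested.

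The double null was last set against WT. 11 of the 32 tested members were at least 2-fold lower (34.4%, against 9.23% of all genes) and 4 at least 2-fold higher (12.5%, against 8.79%). The lower ones included all 3 tested TIMPs, with log2 ratios of -1.12 for Timp1, -1.45 for Timp2 and -1.13 for Timp3. Mmp3 had -2.80 (-2.92 to -2.69), Mmp28 -2.79 (-3.22 to -2.46) and Mmp15 -2.34 (-3.05 to -1.85). The higher ones were Mmp8, Mmp9, Mmp10 and Mmp12. Mmp8 and, among the lower ones, Adamts3 passed the filter only through the libraries where they were high. This pair shares the WT library with the pairs of the single nulls, so its values are not separate evidence. On the FPKM scale the summed MMPs stood at 0.454 of the summed TIMPs in the double null, 0.485 in Trp53-/-, 0.291 in Zfp871-/- and 0.35 in WT. The sum of the TIMPs was 649 and 636 FPKM in the double null and Trp53-/-, against 1282 in Zfp871-/- and 1501 in WT. The sum of the MMPs was 295, 309, 373 and 525 in the same order, and 74.8% to 88.9% of it came from Mmp2, Mmp3 and Mmp14.

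**Figure D4:**
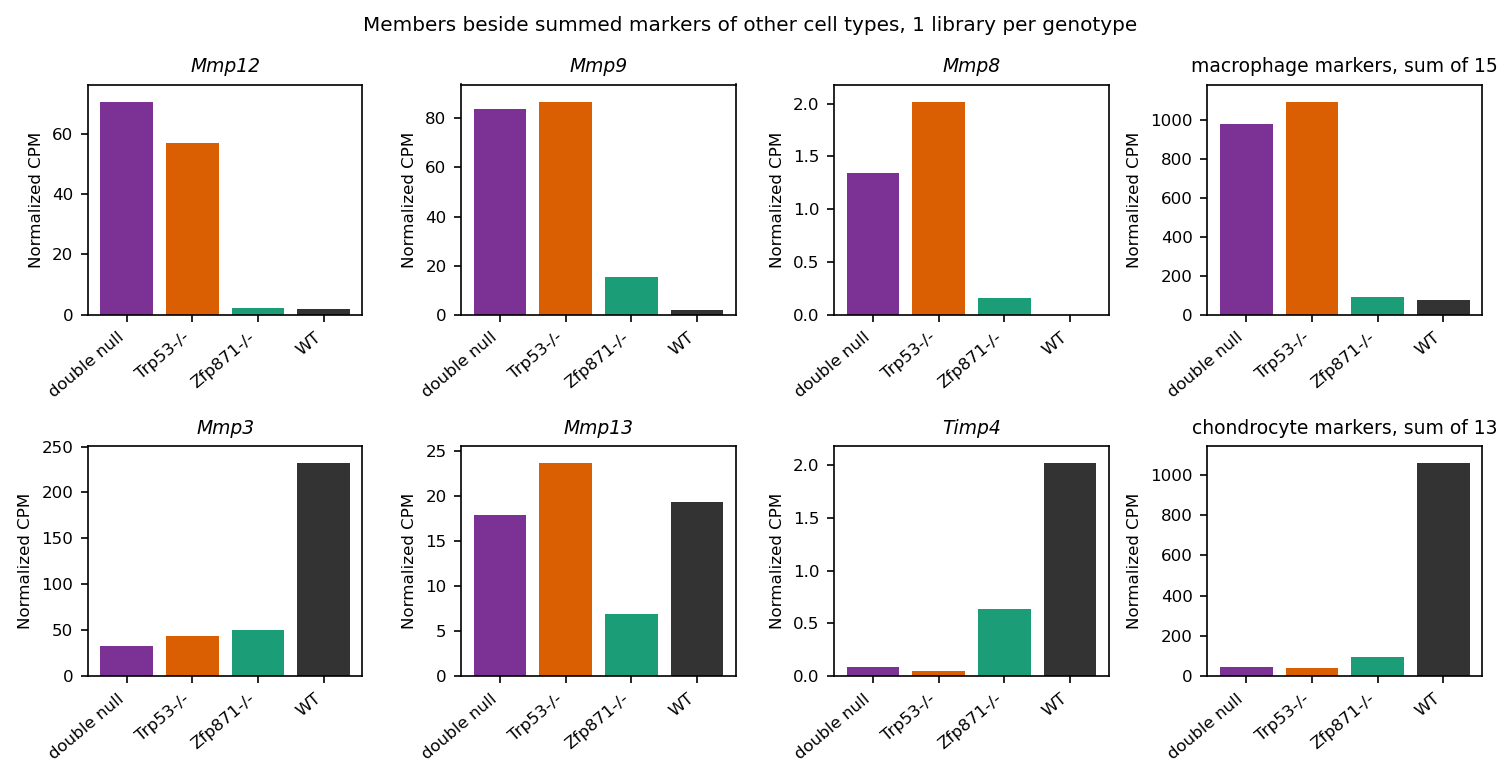
Normalized CPM of 6 members beside the summed markers of macrophages (15 genes) and chondrocytes (13 genes), 1 bar per library from an axis that starts at 0; with 1 library a genotype there are no error bars. Mmp12 and the macrophage sum are high in both Trp53-null libraries, Mmp9 also stands at 15.5 in Zfp871-/-, and Mmp3 and the chondrocyte sum are highest in WT.

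9 members form a gene cluster of 427 kb on chromosome 9 (7272514 to 7699585, GRCm38/mm10), in the order Mmp13, Mmp12, Mmp1b, Mmp3, Mmp10, Mmp8, Mmp27, Mmp20 and Mmp7. Mmp12 and Mmp8 were highest in the Trp53-null libraries and Mmp3 in WT. Mmp10 was lowest in WT, and Mmp13 was lowest in Zfp871-/-. Mmp27 had 17 and 21 counts in the double null and Trp53-/-, against 6 in Zfp871-/- and 6 in WT, and was too low to be tested. Mmp1b, Mmp20 and Mmp7 had at most 9 counts in a library.

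**Figure D5:**
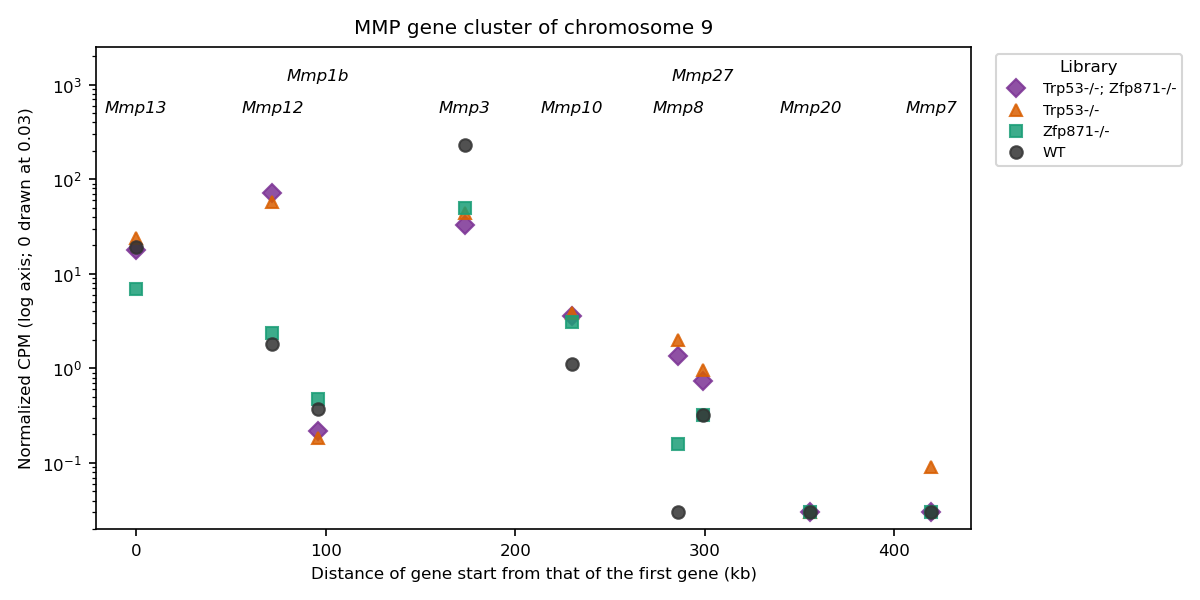
Normalized CPM (log axis) of the 9 cluster genes in each library, placed by the distance of each gene start from that of Mmp13; values of 0 are drawn at 0.03. Mmp12, at 71.9 kb, is high in both Trp53-null libraries, and Mmp3, at 173.3 kb, is highest in WT.

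The promoters of this cluster are shown because MMP genes are textbook targets of the AP-1 factors, the Fos and Jun dimers, through a site just ahead of a TATA box. A RefSeq promoter window (GRCm38.p6), 250 bases before to 50 after the gene start, was used for 31 of the 45 members. None was used for Mmp2, Mmp9, Mmp16, Mmp17, Mmp19, Adamts4 to Adamts8, Adamts10, Adamts15, Adamts16 and Adamts19. TGANTCA, the AP-1 motif, searched on both strands, was in 6 of the 31 windows (19.4%) and in 7.81% of all 32851 windows. All 6 windows belonged to the chromosome 9 cluster. TATAAA, searched on both strands, was in 9 windows (29%), against 13.6% of all. Each member was counted by the window nearest to its annotated gene start, while the shares of all windows count windows and not genes. The stretches below run from 110 bases before to 10 bases after the RefSeq gene start, 5′ to 3′ on the coding strand, for all 9 genes of the cluster and with both motifs in capitals.
Mmp13 (chr9:7272404-7272523, plus strand): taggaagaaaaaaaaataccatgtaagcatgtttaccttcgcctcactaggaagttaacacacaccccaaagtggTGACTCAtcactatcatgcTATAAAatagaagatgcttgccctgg
Mmp3 (chr9:7445712-7445831, plus strand): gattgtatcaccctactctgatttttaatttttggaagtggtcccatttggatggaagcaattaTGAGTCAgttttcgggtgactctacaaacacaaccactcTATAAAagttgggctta
Mmp10 (chr9:7502232-7502351, plus strand): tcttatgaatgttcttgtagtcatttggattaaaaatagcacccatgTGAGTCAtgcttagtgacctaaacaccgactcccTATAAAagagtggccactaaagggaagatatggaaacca
Mmp1b (chr9:7388017-7388136, minus strand): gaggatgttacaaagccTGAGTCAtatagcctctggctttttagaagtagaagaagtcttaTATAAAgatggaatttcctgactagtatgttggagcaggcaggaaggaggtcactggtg
Mmp20 (chr9:7628121-7628240, plus strand): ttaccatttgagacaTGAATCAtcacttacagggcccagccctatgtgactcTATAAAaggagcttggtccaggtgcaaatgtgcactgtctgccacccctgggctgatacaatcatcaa
Mmp7 (chr9:7691980-7692099, plus strand): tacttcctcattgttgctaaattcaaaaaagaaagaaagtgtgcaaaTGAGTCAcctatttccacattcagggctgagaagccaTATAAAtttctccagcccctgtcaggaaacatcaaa
Mmp12 (chr9:7344287-7344406, plus strand): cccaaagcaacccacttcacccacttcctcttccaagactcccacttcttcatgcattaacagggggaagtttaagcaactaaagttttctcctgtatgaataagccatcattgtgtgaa
Mmp8 (chr9:7558319-7558438, plus strand): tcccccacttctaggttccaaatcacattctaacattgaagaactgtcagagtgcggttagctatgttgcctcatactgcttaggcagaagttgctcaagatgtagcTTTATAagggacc
Mmp27 (chr9:7571286-7571405, plus strand): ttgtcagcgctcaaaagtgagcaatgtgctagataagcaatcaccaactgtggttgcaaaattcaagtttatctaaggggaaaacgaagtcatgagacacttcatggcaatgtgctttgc

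In the first 6 of these stretches the AP-1 motif, a pattern that reads the same on both strands, came before a TATA motif on the coding strand. It started 35 bases before the gene start in Mmp13, 46 in Mmp3, 63 in Mmp10 and Mmp7, 93 in Mmp1b and 95 in Mmp20. The Mmp7 window also held a TATA motif ahead of its AP-1 motif, 123 bases before the gene start and outside the stretch. The Mmp12 and Mmp27 windows held neither set of letters, and that of Mmp8 held only the TATA letters, on the other strand. Of the genes with the motif, Mmp3 was at least 2-fold lower and Mmp10 at least 2-fold higher in each null library than in WT. Mmp13 was lowest in Zfp871-/-. Mmp1b, Mmp7 and Mmp20 had at most 9 counts in a library, too few to compare. The part of AP-1 in these values was not tested. A match of letters is a description and not evidence of binding.

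The wider pathway was read from further lists. Of 27 tested activators and regulators of these proteases (30 listed) 5 fell and 0 rose with Trp53 loss, with a median log2 change of -0.19. The share that fell was 18.5%, against 4.31% of all genes, of which 5.01% rose. Serpine2, protease nexin-1, which inhibits thrombin and urokinase, had 335 and 462 counts in the double null and Trp53-/-, against 3187 in Zfp871-/- and 8531 in WT. It fell by 3.99 (SE 0.261, edgeR adjusted p 0.0115). Reck, the membrane-anchored inhibitor of several MMPs, had 386 and 423 counts, against 667 in Zfp871-/- and 1025 in WT, and fell by 1.29 (SE 0.161, edgeR adjusted p 0.0275). Plau, the urokinase that starts the plasmin cascade, fell by 0.64 (edgeR adjusted p 0.0385). Pcsk6, a proprotein convertase, fell by 1.12 (edgeR adjusted p 0.0262), and Fap, a serine protease of activated fibroblasts named after its values were seen, fell by 1.17 (edgeR adjusted p 0.0447). Of 6 tested ADAMTS-like proteins, which lack the protease domain, 1 fell (16.7%), Adamtsl1, by 1.39 (edgeR adjusted p 0.0254).

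Of 22 tested genes for substrates of these enzymes (25 listed) 4 fell and 0 rose with Trp53 loss, with a median log2 change of -0.58, against 0.00 over all genes. The share that fell was 18.2%, against 4.31% of all genes, of which 5.01% rose. Eln, which encodes elastin, had 504 and 547 counts in the double null and Trp53-/-, against 2773 in Zfp871-/- and 11907 in WT, and fell by 3.71 (edgeR adjusted p 0.0336). Lum and Fmod, small proteoglycans of collagen fibrils, fell by 2.24 and 1.63 (edgeR adjusted p 0.0258 and 0.0102), and Col3a1 fell by 0.85 (edgeR adjusted p 0.0427). Acan, the aggrecan cut by Adamts4 and Adamts5, had 180, 100 and 166 counts in the double null, Trp53-/- and Zfp871-/-, against 1919 in WT, and was not called (edgeR adjusted p 0.265). Versican, Vcan, another substrate of that group, had a log2 change of -0.29 and was not called. With Zfp871 loss 0 genes of these lists were called.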

How the data were processed

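The count table was deposited with raw counts by Ensembl gene. The submitters' processing notes name fastp, STAR and featureCounts, and mm10 as the build. Versions, strand setting and annotation release are not stated there. The authors' table of each library names no unit. Its values were read as the authors' FPKM, since each equals the count divided by a length per gene and 1 factor per library (10906 genes with at least 50 counts in every library). Symbols, gene types and coordinates came from GENCODE M21.

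Counts were scaled by TMM in edgeR 4.0.16 (R 4.3.3). 13306 genes with a CPM of at least 1 in at least 2 libraries were tested by quasi-likelihood (edgeR, additive in Trp53 and Zfp871, 1 residual degree of freedom), and p-values were adjusted over all of them by Benjamini-Hochberg, with a threshold of 0.05. The script was tested on simulated data. The SE is the change divided by the root of the F statistic. Log2 ratios of pairs used normalized CPM with a prior count of 2, and their 95% intervals are exact binomial (Clopper-Pearson). Intervals and floors (3 counts per library) cover counting error only: without molecular identifiers, reads are not separate molecules. Alternatives were DESeq2 1.42.0, limma-voom (limma 3.58.1), other scalings, no filter, other prior counts and FPKM with pseudocounts of 1 and 0.1. Values of every library are given for members called, members at least 2-fold in a pair with at least 50 counts, all TIMPs and the 5 highest per length, other members being described by role, and for up to 4 genes of a pathway list by smallest p. The members and lists were chosen with earlier results of these data known.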

Additional observations from a re-analysis of the deposited data

How the results depend on the processing

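The same 8 members were called for Trp53 loss with DESeq2's size factors in edgeR, and with total counts the call of Adamts5 was lost. More members rose, 3 without a filter on low counts and 3 with DESeq2's Wald test (Mmp8, Mmp9 and Mmp12 in each) and 2 with limma-voom, against 1. Without the filter 11 fell, against 7. The number tested changed to 43 without the filter; for the tools the cause was not tested. For Zfp871 loss 0 members were called under every alternative. With FPKM and a pseudocount of 1, which shrinks low genes, fewer members were 2-fold. There were 2 higher in Trp53-/- over WT, 3 higher and 3 lower in the double null over Zfp871-/-, 1 higher in Zfp871-/- over WT, 0 in either direction in the double null over Trp53-/-, and 2 higher in the double null over WT. With a pseudocount of 0.1 the double null over Trp53-/- also had 0 higher and 0 lower, and with a prior count of 5 it had 0 higher. Without the filter 4 members were at least 2-fold lower in Zfp871-/- over WT. No 2-fold ratio or call of a named member changed sign. Total counts in place of TMM moved the median of all genes by 0.14 in the double null over Zfp871-/-. No paired analysis was possible because each genotype has 1 library and the labels give no replicate numbers. Leaving out a library leaves no residual degree of freedom. Members under about 50 counts have wide counting intervals.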

Other observations

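The AP-1 subunits, the factors that bind the motif searched in the promoters, were all tested and none of the 8 was called in edgeR's quasi-likelihood test. With Trp53 loss 5.01% of all genes rose and 4.31% fell in that test, so 0 calls among 8 genes do not show that they were unchanged. An unadjusted p under 0.05 for Trp53 loss was reached by 2 of the 8, against 31% of all genes. For Trp53 loss their median log2 change was -0.03, with 2 of 8 positive. Fosl2 had 4254 and 3882 counts in the double null and Trp53-/-, against 5097 in Zfp871-/- and 7717 in WT, a log2 change of -0.88 (edgeR adjusted p 0.0635). Atf3, a stress-induced partner of Jun, had 168 and 145 counts in the double null and Trp53-/-, against 54 in Zfp871-/- and 42 in WT, a log2 change of 1.45 (edgeR adjusted p 0.0518). Jun, Junb and Jund had changes between -0.03 and 0.06.

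Mmp1a, left out as a polymorphic pseudogene, had 0 counts in the double null and 2 in each of the other libraries.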
